A study of Mus musculus with 12 samples.

Results

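Cells make cholesterol from acetyl-CoA by way of mevalonate and squalene, and the genes of this pathway are commonly switched on together by the sterol-sensing transcription factor that Srebf2 encodes when membrane sterol runs low. Acetyl-CoA is first built up to HMG-CoA and mevalonate, isoprene units are joined to squalene, and squalene is oxidised and closed into lanosterol, which reductases and a demethylase turn into cholesterol. Stem cells draw on the same route for membranes and for the isoprenoids that anchor proteins and make ubiquinone. The 8 genes described here encode enzymes of that pathway: Hmgcs1, Idi1, Fdft1, Sqle, Lss, Cyp51, Tm7sf2 and Dhcr7. They were chosen by name, with earlier results of these data known, and were found through the gene number that each probe set carries. Each matched a single probe set, so they make up 8 of the 25206 measured. All 8 belong to synthesis. Genes of sterol uptake were therefore looked at as context only.

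The study used Affymetrix arrays to profile female mouse stem cells of 2 origins: iPSC, induced from somatic cells by reprogramming, and ESC, derived from embryos. Both were of C57BL/6 background and were kept undifferentiated without serum or feeder cells in 2iLIF medium. Each was stained with TMRM, a cationic dye that mitochondria take up in proportion to the potential across their membrane, and cell sorting then separated a high from a low fraction, which gave the groups iPSC high, iPSC low, ESC high and ESC low. Each group held 3 arrays, numbered 2, 3 and 4, and neither separate cultures nor the number of lines or clones is stated, so the p-values below reflect only how these arrays varied within a group, and that variation may be technical. The expression values are log2 values and carry no detection calls, and a difference of 1 is a doubling. The median of an array was 3.51 at the lowest and 3.61 at the highest. All 9 pluripotent cell markers measured had a mean at or above the median level of probe sets, against 2 of 7 fibroblast, 1 of 4 macrophage, 2 of 4 endoderm and 0 of 3 liver markers. Of these 5 lists 1 gene was called in the averaged comparisons, the macrophage marker Cd68, which was 0.82 higher in the high fraction (adjusted p = 0.000828, limma) and is named after its value was seen. The other measured macrophage markers, Ptprc, Adgre1 and Csf1r, differed by -0.05, -0.04 and 0.04 in the average of high minus low. Their mean levels were 1.72, 1.98 and 2.85, against 8.68 for Cd68. The part of Cd68 in the results was not tested.

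Promoter sequences from RefSeq (build GRCm38.p6, 250 bases before to 50 after the annotated start) were found for 6 of the 8 genes. They are shown for the genes on which the comparisons turn and for Hmgcs1, the member whose window held a sterol-element-like match. Capitals mark matches, on either strand, to the sterol-element-like motif TCACNCCAC, to CCAAT (the NF-Y box) and to GGGCGG (a GC box). 0 matches overlapped each other.
Tm7sf2, chr19:6067801-6068100, minus strand: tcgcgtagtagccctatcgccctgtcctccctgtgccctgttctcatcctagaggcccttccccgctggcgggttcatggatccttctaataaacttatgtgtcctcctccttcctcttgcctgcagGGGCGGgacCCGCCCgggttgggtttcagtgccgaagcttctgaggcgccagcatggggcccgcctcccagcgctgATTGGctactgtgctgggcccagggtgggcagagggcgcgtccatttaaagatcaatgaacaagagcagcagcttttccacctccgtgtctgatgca
Lss, chr10:76531355-76531654, plus strand: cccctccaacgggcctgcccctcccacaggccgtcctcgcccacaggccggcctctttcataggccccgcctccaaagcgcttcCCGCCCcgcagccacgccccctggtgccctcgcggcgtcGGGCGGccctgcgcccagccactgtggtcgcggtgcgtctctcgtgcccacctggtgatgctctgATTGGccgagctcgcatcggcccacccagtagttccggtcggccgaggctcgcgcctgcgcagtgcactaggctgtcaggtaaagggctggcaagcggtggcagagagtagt
Cyp51, chr5:4104648-4104947, minus strand: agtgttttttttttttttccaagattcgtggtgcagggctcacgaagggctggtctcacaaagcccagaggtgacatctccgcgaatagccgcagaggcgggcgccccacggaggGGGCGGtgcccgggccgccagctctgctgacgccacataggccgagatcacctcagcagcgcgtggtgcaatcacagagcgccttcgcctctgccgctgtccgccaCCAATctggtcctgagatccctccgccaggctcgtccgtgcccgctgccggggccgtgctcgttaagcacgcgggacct
Hmgcs1, chr13:119690101-119690400, plus strand: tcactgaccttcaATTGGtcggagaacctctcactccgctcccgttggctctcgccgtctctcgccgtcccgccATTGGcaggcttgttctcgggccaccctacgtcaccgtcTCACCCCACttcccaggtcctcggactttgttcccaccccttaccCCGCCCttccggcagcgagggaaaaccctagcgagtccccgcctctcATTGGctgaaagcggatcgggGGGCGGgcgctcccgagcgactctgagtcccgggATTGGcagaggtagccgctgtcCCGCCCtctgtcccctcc
The sterol-element-like motif was present in 1 of 6 genes with a promoter entry, at base -137 from the start in Hmgcs1, and in 1.24% of all 32851 promoter windows of equal length. These 6 genes had 8 windows. CCAAT was present in 6 of 8 windows, against 37.4% of all windows, and GGGCGG in 7 of 8, against 35.7%. These matches describe the letters of the windows and nothing about binding.

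The first question of the design is whether transcripts differ with membrane potential. Of the 8 cholesterol synthesis genes, 0 passed the test in iPSC, in ESC or averaged over both (limma, Benjamini-Hochberg adjusted p under 0.05 over all probe sets). The background, the share of all probe sets called in either direction, was 0.547% in iPSC (0.349% higher and 0.198% lower), 0.357% in ESC (0.305% higher and 0.0516% lower) and 2.5% in the average (1.6% higher and 0.905% lower). These backgrounds depended on single arrays: the 138 probe sets called in iPSC became 1 without iPSC high replicate 4, the 90 in ESC became 19 without ESC high replicate 2 or ESC low replicate 2, and the 631 in the average became 380 without ESC high replicate 3. At an unadjusted p under 0.05 the counts were 0 of 8 in iPSC, 1 in ESC and 1 in the average, Cyp51 downward in both (limma). That compares with 5.64% of probe sets downward and 7.04% upward in iPSC, 3.76% downward and 4.52% upward in ESC, and 7.65% downward and 7.97% upward in the average. In sorted bulk samples fewer cells of a type and less RNA per cell cannot be told apart. Averaged over both cell types, 4 genes were above 0 and 4 below, with a median log2 difference of -2e-04 beside 0.0029 for all probe sets. Apart from Cyp51, the 95% confidence intervals of the average difference reached no further than 0.29 from 0, and that of Cyp51 reached -0.46.

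Cyp51 encodes the demethylase that removes a methyl group from lanosterol. Its log2 expression was 7.81, 7.80 and 7.62 in iPSC high, against 7.89, 7.84 and 7.94 in iPSC low. In ESC it was 7.95, 7.56 and 7.92 in the high fraction, against 8.39, 7.95 and 8.22 in the low fraction. High arrays lay below low arrays within each cell type, although in ESC the highest high array and the lowest low array both read 7.95. Such a separation downward was seen for 9.57% of all probe sets in iPSC and for 6.36% in ESC. The difference was -0.15 ± 0.13 (SE) in iPSC (adjusted p = 0.698, limma) and -0.38 ± 0.13 in ESC (adjusted p = 0.396, limma). The average of both was -0.26 ± 0.09 (adjusted p = 0.185, limma). The high array was lower in 6 of 6 numbered pairs, with differences between -0.44 and -0.05, yet the result did not pass the correction. The share of all probe sets with 6 such pairs was not counted. Among the 8 genes Cyp51 had the widest average gap between the fractions.

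Fdft1 is squalene synthase, which commits carbon to sterols. It read 9.91, 9.91 and 9.95 in iPSC high, against 9.75, 9.87 and 9.89 in iPSC low, with no overlap, as for 9.76% of probe sets in the upward direction (6.71% in ESC). In ESC it read 10.01, 9.99 and 9.92 in the high fraction, against 9.86, 9.94 and 9.86 in the low fraction, with overlap. The average difference was small, 0.09 ± 0.06 (adjusted p = 0.509, limma), and above 0 in 6 of 6 numbered pairs, from 0.05 to 0.17. How many probe sets had 6 pairs above 0 was not counted either. No call was made.

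The other 6 genes showed less order between the fractions. Hmgcs1, which makes HMG-CoA, differed by -0.02 ± 0.06 on average and was higher in the high array in 3 of 6 pairs. Idi1, which interconverts the isoprene building units, differed by 0.02 ± 0.10, also with 3 of 6 pairs above 0. Its pairs spanned from -0.35 to 0.45, the widest range of the members. Idi1 was also the dimmest member, with a mean level of 4.71, above 62.2% of probe sets. The next, Tm7sf2, had a mean level of 6.63, above 81.3%. Sqle, the squalene epoxidase that uses oxygen, was at -0.07 ± 0.06 with 5 of 6 pairs below 0. Lss, which closes the sterol rings to give lanosterol, was at 0.02 ± 0.08. Tm7sf2, a sterol reductase acting after Cyp51, was at 0.12 ± 0.08 with 5 of 6 pairs above 0. Dhcr7, the reductase of the last step to cholesterol, was at -0.04 ± 0.10. Adjusted p-values of these 6 genes in the average ran from 0.509 to 0.956 (limma).

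**Figure D1:**
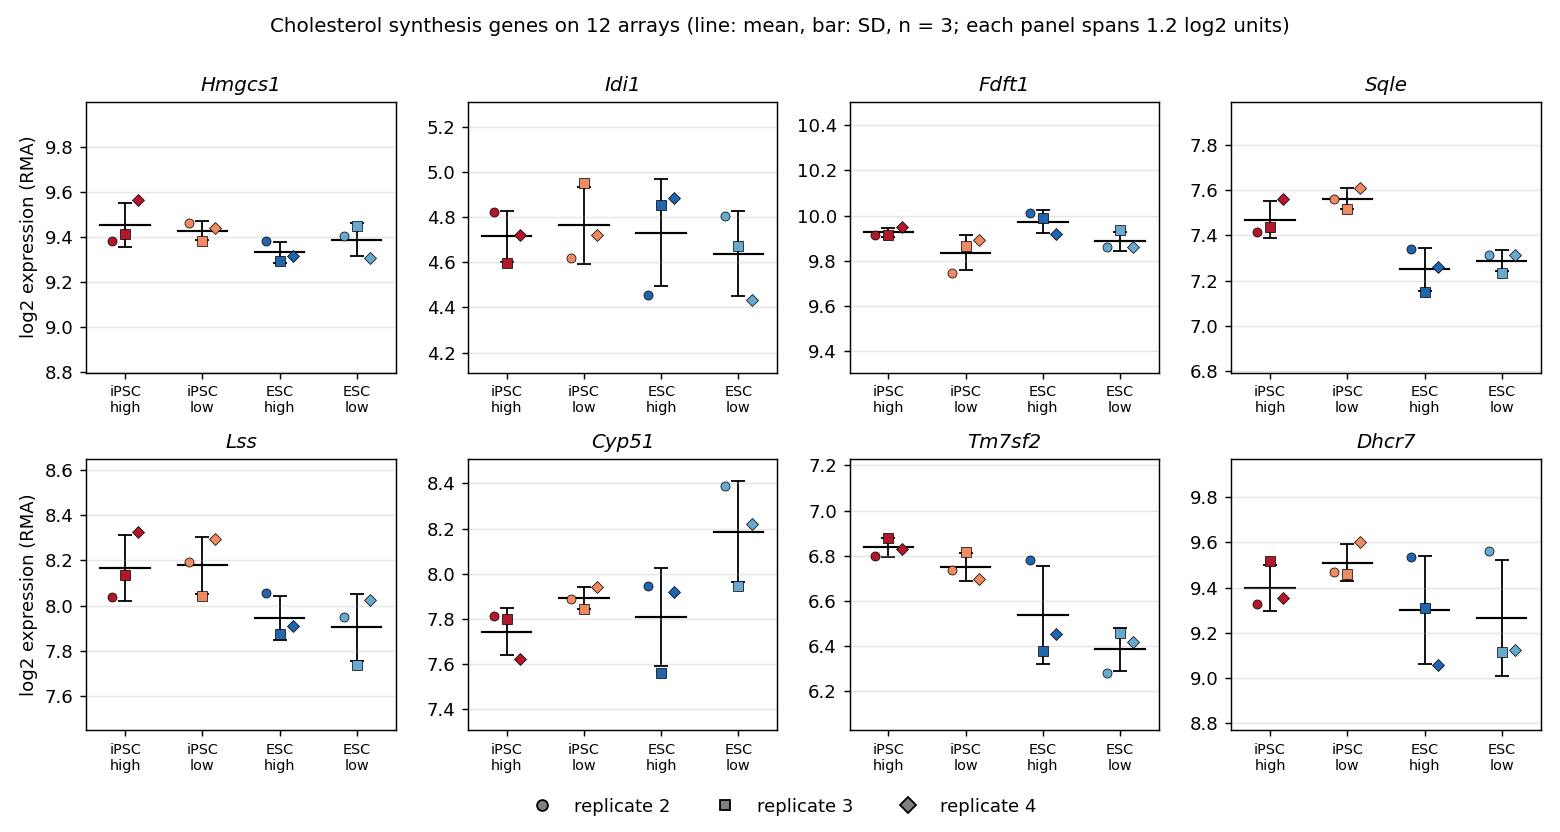
Log2 expression (vertical axis, RMA values, equal span in each panel) of the 8 genes on each of 12 arrays, by group (horizontal axis), with symbols for the replicate number, lines for the group mean and bars for the SD of 3 arrays. Tm7sf2 lies between 6.70 and 6.88 in iPSC and mostly lower in ESC, and Cyp51 is lower in the high fraction of each cell type.

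The high and low fractions also differed in cell cycle genes. Of 15 measured G2/M genes, 11 were called higher in the high fraction and 0 lower over both cell types (limma). The shares of all probe sets were 1.6% higher and 0.905% lower. The list of G2/M genes was chosen with earlier results of these data known, so its count is a description and no independent test. These genes had a median log2 difference of 0.58. Their mean level per array ran from 8.50 to 8.58 in iPSC high, against 7.99 to 8.04 in iPSC low. In ESC it ran from 8.36 to 8.54 in the high fraction, against 7.90 to 7.96 in the low fraction. The part of these genes in the values of Cyp51 and the other members was not tested.

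Whether the fractions differed more in one cell type than in the other was asked by the interaction, the high minus low difference in iPSC minus that in ESC. No member passed (0 of 8; background 0%, as 0 of 25206 probe sets passed). At an unadjusted p under 0.05 the counts were 0 of 8 members and 1100 probe sets (limma). Cyp51 had the largest value, 0.23 ± 0.19, with a 95% confidence interval from -0.17 to 0.63.

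**Figure D2:**
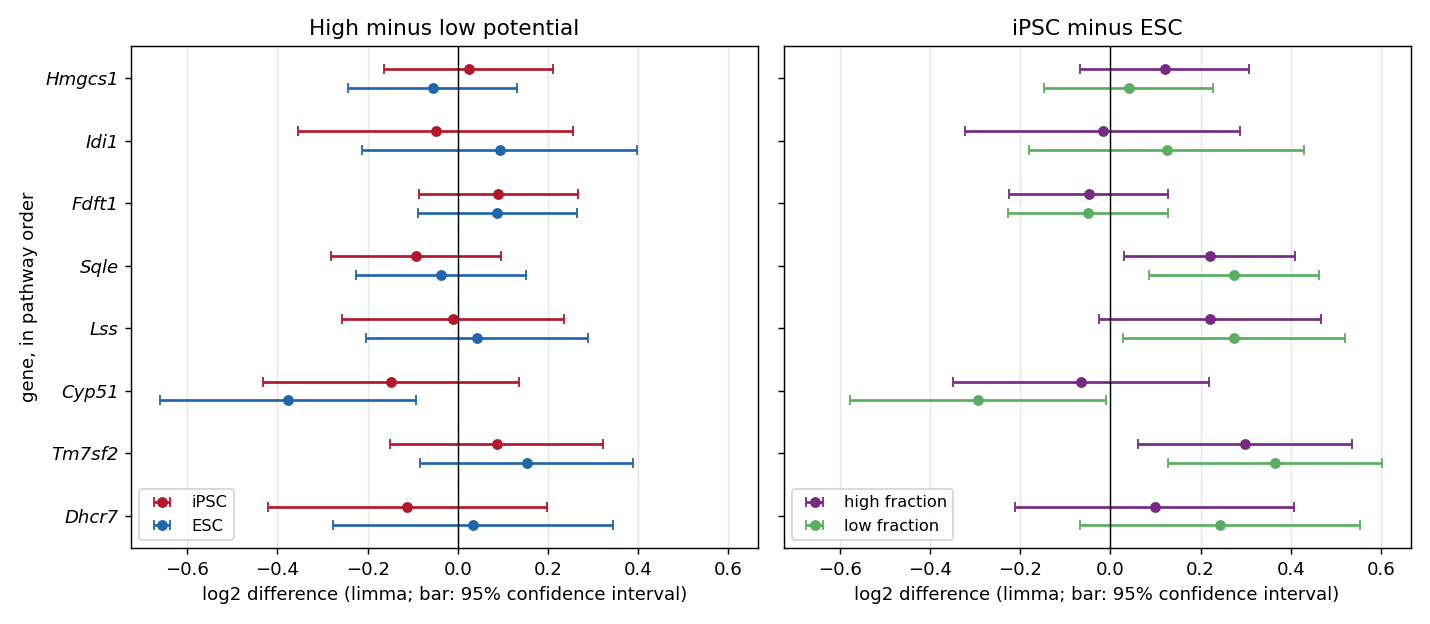
Log2 differences (horizontal axis) of the 8 genes in pathway order (vertical axis), with 95% confidence intervals from limma, for high minus low in iPSC and in ESC (left) and iPSC minus ESC in the high and in the low fraction (right). On the left only the ESC interval of Cyp51 leaves out 0, and on the right Tm7sf2 and Sqle lie above 0 in each fraction.

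A second contrast of the design is iPSC against ESC, each averaged over the fractions. Tm7sf2 passed the test, Sqle and Lss were at a similar size without passing, and Cyp51 lay on the other side of 0. Thus 1 of 8 genes was called higher and 0 lower, where 0.916% of all probe sets were called higher and 1.96% lower (2.87% in all, or 724 probe sets, which became 394 without iPSC high replicate 4). At an unadjusted p under 0.05 there were 3 of 8, all higher, against 7.37% of probe sets higher (limma). The 8 genes had a median log2 difference of 0.13, with 6 above 0, beside a median of 0.01 for all probe sets.

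Tm7sf2 read 6.80, 6.88 and 6.83 in iPSC high, against 6.78, 6.38 and 6.45 in ESC high. In the low fraction it read 6.74, 6.82 and 6.70 in iPSC, against 6.28, 6.46 and 6.42 in ESC. Every iPSC array except those at 6.70 and 6.74 was above every ESC array, and the exception arose from ESC high replicate 2, at 6.78. The mean difference was 0.33 ± 0.08 (1.26-fold; adjusted p = 0.0385, limma). Arrays of equal number within a cell type resembled each other, and with that number as a random replicate block the adjusted p was 0.0858 (limma), or 0.0596 with the number as a block across cell types. Leaving out any of 11 arrays ended the call (adjusted p from 0.055 to 0.0912, limma), whereas without ESC high replicate 2 the difference was 0.39 with an adjusted p of 0.012.

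Sqle read 7.41, 7.44 and 7.56 in iPSC high, against 7.34, 7.15 and 7.26 in ESC high. In the low fraction it read 7.56, 7.52 and 7.61 in iPSC, against 7.32, 7.24 and 7.31 in ESC. All 6 iPSC arrays were above all 6 ESC arrays, as for 1% of probe sets in this direction and 1.75% in the other. The difference was 0.25 ± 0.06 (1.19-fold; adjusted p = 0.0527, limma), which missed the threshold. It passed when dim probe sets were left out (adjusted p = 0.02, limma) and with a trended, robust variance prior (adjusted p = 0.0201, limma). It did not pass with the random replicate block (0.0918), with the block across cell types (0.0548), with median centring (0.077) or in any of 12 fits that each left out an array (0.0524 to 0.135, limma).

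Lss read 8.04, 8.14 and 8.33 in iPSC high, against 8.05, 7.87 and 7.91 in ESC high. In the low fraction it read 8.19, 8.04 and 8.30 in iPSC, against 7.95, 7.74 and 8.03 in ESC. The cell types overlapped in the high fraction and did not in the low fraction, where the nearest arrays read 8.04 in iPSC and 8.03 in ESC. Such upward separation in the low fraction was seen for 8.04% of all probe sets. The mean difference of Lss was 0.25 ± 0.08 (adjusted p = 0.142, limma). Dhcr7 was at 0.17 ± 0.10 (adjusted p = 0.487, limma), and its ESC arrays spread from 9.06 to 9.56 while its iPSC arrays spread from 9.33 to 9.60.

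Among the members, the early enzymes showed smaller differences between cell types. Hmgcs1 was at 0.08 ± 0.06, Idi1 at 0.05 ± 0.10 and Fdft1 at -0.05 ± 0.06, with adjusted p-values of 0.615, 0.873 and 0.78 (limma). Their 95% confidence intervals ended at 0.21, 0.27 and 0.08 on the upper side. Measured early enzymes outside the members did not all share this small size. Named after their values were seen, they stood at 0.27 (Mvd), 0.19 (Pmvk), 0.19 (Fdps) and -0.13 (Mvk). Mvk lies on chromosome 5, where 86.4% of probe sets at or above the median level were below 0 (median -0.24). The part of that shift in the value of Mvk was not tested. Whether early and late enzymes differed from each other as groups was not tested.

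Within single fractions 0 of 8 genes were called, against backgrounds of 0.186% in the high and 0.397% in the low fraction. These 47 probe sets in the high fraction became 1 without ESC high replicate 3 or iPSC high replicate 4, and the 100 in the low fraction became 14 without ESC low replicate 2. At an unadjusted p under 0.05 there were 2 of 8 genes in the high and 4 of 8 in the low fraction, against 9.52% and 11.2% of all probe sets (limma). Tm7sf2 differed by 0.30 ± 0.11 in the high fraction and by 0.37 ± 0.11 in the low fraction, without overlap between the cell types in either. Sqle, also without overlap, differed by 0.22 ± 0.09 in the high and by 0.27 ± 0.09 in the low fraction. Upward separation of this kind was seen for 8.16% of probe sets in the high and 8.04% in the low fraction.

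Cyp51 averaged 7.74 ± 0.11 in iPSC high and 7.81 ± 0.22 in ESC high (SD, n = 3 each). In the low fraction it averaged 7.89 ± 0.05 in iPSC and 8.19 ± 0.22 in ESC (SD, n = 3 each). The cell types separated downward in the low fraction, as for 7.79% of probe sets, and overlapped in the high fraction, where the share was 7.59%. The average difference was -0.18 ± 0.09 (adjusted p = 0.412, limma). Cyp51 lies on chromosome 5, and of 752 probe sets on that chromosome at or above the median level, 86.4% were below 0 in iPSC minus ESC, with a median of -0.24 and 196 called lower. Chromosome 12 was the other chromosome with such a shift, with a median of -0.29, and it carries no member. On the chromosomes of the other 7 members the medians ran from -8e-04 to 0.0371. The part of that chromosome-wide shift in the value of Cyp51 was not tested.

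**Figure D3:**
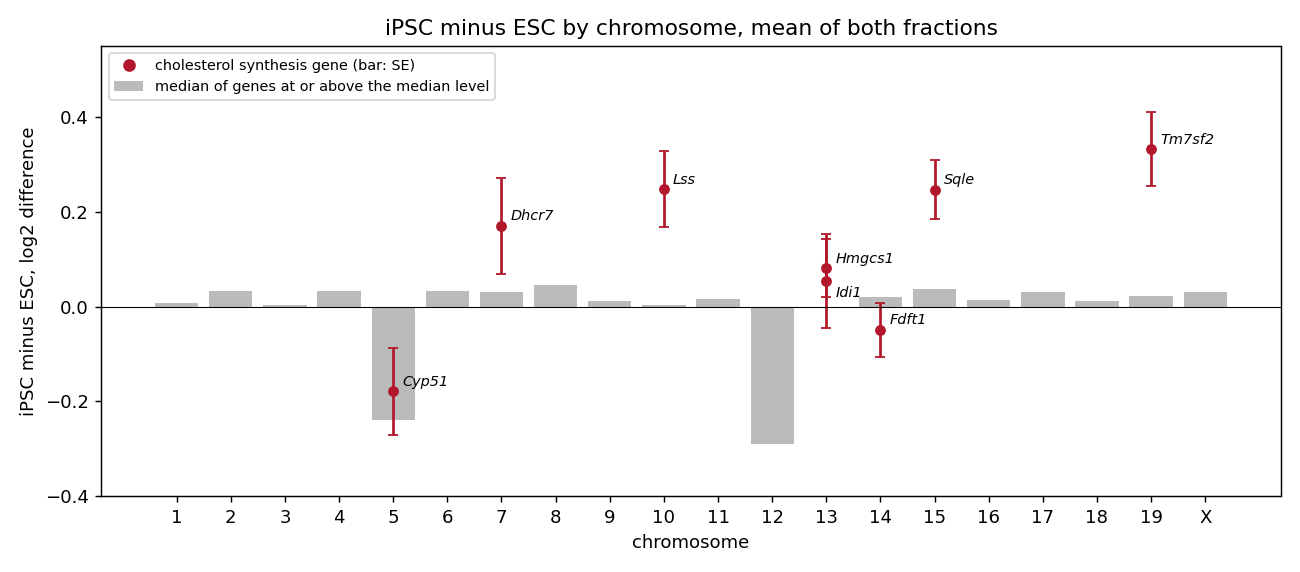
Median log2 difference of iPSC minus ESC (vertical axis) for genes of each chromosome (grey bars, horizontal axis), with the 8 cholesterol synthesis genes as red points with SE. Bars of chromosomes 5 and 12 stand at -0.24 and -0.29, and Cyp51 at -0.18 on chromosome 5; Tm7sf2 at 0.33 on chromosome 19 lies above its chromosome's median of 0.02.

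Across groups, the order of the mean levels also differed among the members. Tm7sf2 ran from iPSC high through iPSC low and ESC high to ESC low, and Sqle from iPSC low through iPSC high and ESC low to ESC high. Cyp51 ran from ESC low through iPSC low and ESC high to iPSC high. Group means spanned 0.45 for Tm7sf2, 0.44 for Cyp51, 0.31 for Sqle, 0.27 for Lss and 0.24 for Dhcr7. For Fdft1, Idi1 and Hmgcs1 they spanned 0.14, 0.13 and 0.12. Neighbours in that order overlapped for every member except at 1 step each in Sqle and Cyp51. For Sqle this step separated iPSC high from ESC low, and for Cyp51 it separated ESC low from iPSC low, where the nearest arrays read 7.95 and 7.94. The arrays of iPSC low lay below those of ESC low for 7.79% of all probe sets. For iPSC high against ESC low, and for neighbours after ordering by mean, the share was not counted.

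Of 28 pairs of members, 12 had a Pearson correlation above 0 over the 12 arrays, and the median was -0.04. After group means were subtracted, 19 of 28 were above 0, with a median of 0.18. These values describe arrays that share groups, so they carry no p. Sqle and Lss, which catalyse consecutive steps, varied most alike, at 0.89 over 12 arrays, 0.77 over the 6 iPSC arrays and 0.68 over the 6 ESC arrays. With group means subtracted, their value was 0.87. Sqle and Tm7sf2 were at 0.73 over all arrays but at -0.67 within iPSC and 0.37 within ESC.

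The genes whose pattern over 12 arrays was most like the mean of the 8 members were Kdsr (Pearson 0.96), Pitrm1 (0.95), Gldc (0.95), Ttc12 (0.93) and Ptprd (0.93). Kdsr encodes a reductase of sphingolipid synthesis, Pitrm1 a mitochondrial peptidase and Gldc a subunit of the glycine cleavage system. They were the highest of 11832 named genes at or above the median level. Of these 5, Ptprd, a receptor phosphatase, passed in iPSC minus ESC (0.71; adjusted p = 0.0084, limma), and the other 4 did not. None of the 5 passed in the average of high minus low (adjusted p from 0.531 to 0.978, limma). The member mean did not stand for every member. Sqle, Lss, Dhcr7, Tm7sf2 and Hmgcs1 correlated with it at 0.91, 0.82, 0.80, 0.70 and 0.62. Idi1, Cyp51 and Fdft1 were at 0.03, -0.02 and -0.28.

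The surrounding pathway was read from 6 lists with 49 of 59 genes measured, and the other 10 were not analysed here. Over both cell types 1 of the 49 fell with high potential and 0 rose, where 0.905% of all probe sets were called lower and 1.6% higher. In iPSC minus ESC 1 was higher and 2 lower, where the shares were 0.916% and 1.96%. Of 9 other enzymes of sterol synthesis, none passed in high minus low (median 0.11) or in iPSC minus ESC (median 0.19). At an unadjusted p under 0.05 there were 2 in high minus low and 3 in iPSC minus ESC, against 15.6% and 14.7% of all probe sets (limma). Of 8 regulators of the sterol-sensing pathway, 0 passed in either (limma), with 0 and 2 of 8 at an unadjusted p under 0.05, against the same shares. Srebf2, the factor itself, was at -0.01 ± 0.07 in high minus low and at 0.23 ± 0.07 in iPSC minus ESC (adjusted p = 0.115, limma), its 6 iPSC arrays all above its 6 ESC arrays, as for 1% of probe sets. Insig1, which holds the precursor of that factor in the endoplasmic reticulum, was at -0.04 ± 0.10 in high minus low and at -0.01 ± 0.10 in iPSC minus ESC. It lies on chromosome 5, and the part of the shift of that chromosome in its value was not tested.

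Uptake and intracellular transport held the gene that fell with potential. Lrp1, a large endocytic receptor of lipoproteins and other ligands, averaged 5.01 ± 0.18 in iPSC high and 5.74 ± 0.32 in iPSC low (SD, n = 3 each). It averaged 4.90 ± 0.15 in ESC high and 5.46 ± 0.17 in ESC low (SD, n = 3 each). All 6 high arrays lay below all 6 low arrays, as for 0.877% of probe sets in this direction. Lrp1 fell by 0.65 ± 0.11 on the log2 scale (adjusted p = 0.00918, limma), where 0.905% of all probe sets were called lower, and the call held when each of 12 arrays was left out in turn. The list of 8 measured uptake genes had a median of -0.18 in high minus low, 6 of them below 0. All probe sets had a median of 0.0029, with 50.9% above 0. Among probe sets at or above the median level, the share below 0 ran from 47.6% on chromosome 12 to 68.5% on chromosome X.

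In iPSC minus ESC, Npc1, which releases cholesterol from lysosomes, was the uptake gene that was higher (0.25 ± 0.06; adjusted p = 0.0364, limma; 0.0712 with the number as a random replicate block). It averaged 7.27 ± 0.05 in iPSC high and 7.08 ± 0.04 in ESC high (SD, n = 3 each). In the low fraction it averaged 7.34 ± 0.01 in iPSC and 7.02 ± 0.09 in ESC (SD, n = 3 each). It passed in 1 of 12 fits that each left out an array, with adjusted p from 0.0417 to 0.0899 (limma). Among side branches that use the same isoprenoids, Coq2, of ubiquinone synthesis, was lower in iPSC, at -1.02 ± 0.13 (adjusted p = 0.00223, limma). From lowest to highest its arrays lay at 4.77, 4.90 and 5.55 in iPSC high, against 6.06, 6.28 and 6.36 in ESC high. Its low fraction ranged from 5.50 to 5.92 in iPSC, against 6.36 to 6.76 in ESC. No iPSC array reached an ESC array, as for 1.75% of probe sets in this direction. In high minus low Coq2 was at -0.51 ± 0.13, with an adjusted p of 0.0714, and of 0.0325 in a limma fit with the replicate block. There it passed in 1 of 12 fits without a block that each left out an array, with adjusted p from 0.0134 to 0.159 (limma).

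Fntb, the beta subunit of protein farnesyltransferase, was lower in iPSC, at -0.28 ± 0.07 (adjusted p = 0.0464, limma; 0.0847 with the number as a random replicate block). It passed in 1 of 12 fits that each left out an array, with adjusted p from 0.034 to 0.105 (limma). Coq2 lies on chromosome 5 and Fntb on chromosome 12, the chromosomes with the shift given above, whose part in both values was not tested. Of 10 genes of fatty acid synthesis and 6 of efflux and storage, 0 passed in either comparison (limma). At an unadjusted p under 0.05 there were 0 of both lists in high minus low, against 15.6% of all probe sets. In iPSC minus ESC there were 3 of 10 and 1 of 6, against 14.7% (limma). The median of the fatty acid list was -0.03 in high minus low and 0.10 in iPSC minus ESC, and that of the efflux list was 0.01 and 0.10. For the fatty acid list 9 of 10 genes were above 0 in iPSC minus ESC, where 53.3% of all probe sets were.

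**Figure D4:**
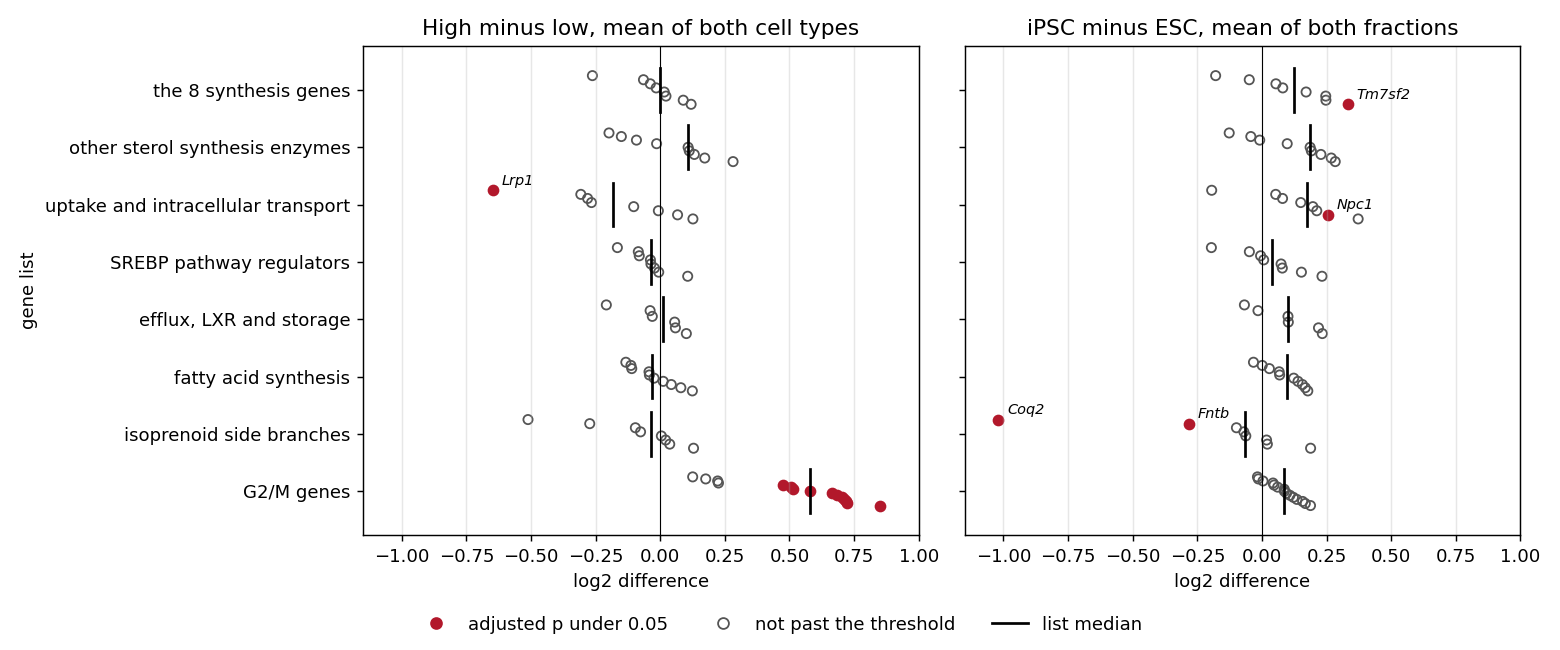
Log2 differences (horizontal axis) of single genes (circles) in the 8 synthesis genes, the 6 lists around them and G2/M genes (vertical axis), averaged over cell types (left, high minus low) or over fractions (right, iPSC minus ESC). Filled circles passed the adjusted threshold of 0.05 and vertical lines are list medians; Lrp1 stands at -0.65 on the left and Coq2 at -1.02 on the right.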

How the data were processed

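RNA of 12 sorted samples was measured on Affymetrix arrays. The deposited table holds log2 values of 25206 probe sets made by the authors with RMA (affy 1.36.1, R 2.15.1), per the submitters' processing notes. RMA subtracts background, quantile-normalizes arrays together and summarises probes. Which chip definition and genome build lie behind them was not given in the sources used here. Quantile normalization hides changes shared by most genes. Values have no depth, and the number of arrays limits the precision.

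Probe sets were named by gene number (23185 named, 2021 unnamed), with chromosomes from a GRCm38.p6 table. All tests used limma 3.58.1 in R 4.3.3, 1 mean per group over 12 arrays, no block, moderated variances, and Benjamini-Hochberg adjustment over all probe sets with a threshold of 0.05. Figures used matplotlib 3.10.9 in Python 3.11.15.

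Residuals of equal-numbered high and low arrays of a cell type correlated at 0.11 to 0.34, all above those of unequal numbers (at most 0.00), so the numbers were taken as pairs within cell types, an inference from the data. Between cell types equal numbers gave -0.09 to 0.13 and were not taken as pairs. Unequal numbers between cell types gave -0.16 to 0.17, which overlaps the range of the equal-numbered arrays within a cell type. Alternatives were median centring, a level filter, another variance prior, replicate blocks, 6-array fits and leaving out each array.

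Some listed genes are not reported here. Members and lists were chosen with earlier results of these data known. Genes named were the members, up to 4 called genes per list, Srebf2 and Insig1, and the 5 genes most like the member mean. Measured early enzymes outside the members were named as well, for iPSC minus ESC.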

Additional observations from a re-analysis of the deposited data

How the results depend on the processing

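The count of the 8 genes called stayed at 0 under every alternative in 6 of 7 comparisons (each cell type's high minus low, their average, the interaction, and iPSC minus ESC within each fraction). In the exception, iPSC minus ESC averaged over fractions, the count of 1 became 2 with dim probe sets left out and 2 with the trended, robust prior. It was 0 with the replicate block across cell types and 0 with the random replicate block within cell types, and 0 to 1 when an array was left out. The cause was not tested. The replicate block within cell types changed no call of a member in high minus low, where Cyp51 came to an adjusted p of 0.0669 in the average (limma). With arrays centred on their medians, 361 probe sets were called higher and 368 lower in the average of high minus low, against 403 and 228 as deposited, and 70 and 85 in iPSC, against 88 and 50. For iPSC minus ESC in the low fraction centring gave 42 and 37, against 43 and 57. Averaged iPSC minus ESC gave 347 higher and 690 lower without dim probe sets, against 231 and 493, and 143 and 320 with the random replicate block. The replicate block within cell types gave 523 higher and 417 lower in the average of high minus low, 146 and 31 in ESC, against 77 and 13, 142 and 94 in iPSC, and 1 and 0 in the interaction, against 0 and 0. In single fractions, iPSC minus ESC gave 71 and 152 in the low and 43 and 105 in the high fraction without dim probe sets, where the reported fit gave 43 and 57 in the low and 18 and 29 in the high fraction. Fits on only the 6 arrays compared gave 64 and 36 in iPSC and 36 and 3 in ESC for high minus low, and for iPSC minus ESC 0 and 1 in the high and 2 and 1 in the low fraction. Leaving out each array in turn moved the number of probe sets called to between 1 and 208 in iPSC high minus low, 19 and 111 in ESC high minus low, 380 and 695 in their average, 394 and 680 in averaged iPSC minus ESC, 1 and 48 in the high fraction and 14 and 74 in the low fraction. It moved by over 1.5 times in iPSC high minus low on leaving out each iPSC array. In ESC high minus low it did so without ESC high replicate 2 or 3 or ESC low replicate 2 or 4. In their average it did so without ESC high replicate 2 or 3, ESC low replicate 2, iPSC high replicate 4 or iPSC low replicate 4. In averaged iPSC minus ESC it did so without iPSC high replicate 4 or iPSC low replicate 2. In the high fraction it did so on leaving out each high array or iPSC low replicate 4, and in the low fraction on leaving out each array other than ESC high replicates 2 and 4.

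Of the members' 56 log2 differences, 18 changed sign in at least 1 alternative, in 44 of 936 fits of single differences, 0 of them with an adjusted p under 0.05 (limma), all from sizes of at most 0.0981. Centring on the medians gave Hmgcs1 -0.0339 in iPSC high minus low, Idi1 -0.0177 and Lss -0.0242 in the average of high minus low, and Fdft1 -0.0348 in the interaction. Leaving out an array gave, in ESC high minus low, ranges of Idi1 -0.0095 to 0.23, Sqle -0.0827 to 0.0124, Lss -0.0413 to 0.10 and Dhcr7 -0.0827 to 0.18. In iPSC high minus low they were Hmgcs1 -0.0312 to 0.0593, Idi1 -0.12 to 0.044 and Lss -0.0907 to 0.0525. In the average they were Hmgcs1 -0.0435 to 0.0018, Idi1 -0.0292 to 0.0905, Lss -0.0263 to 0.0474 and Dhcr7 -0.0971 to 0.0355. In the interaction they were Fdft1 -0.0427 to 0.0307, Lss -0.13 to 0.03 and Tm7sf2 -0.15 to 0.0561. In averaged iPSC minus ESC the range was Idi1 -0.0143 to 0.0964, and in the high fraction alone Idi1 -0.15 to 0.0591, Cyp51 -0.19 to 0.004 and Dhcr7 -0.0237 to 0.22.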
